A study of Caenorhabditis elegans with 15 samples.

Results

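Fatty acids and retinol hardly dissolve in water, so animal cells move them bound to carrier proteins. Nematodes have a protein family of their own for this, the FAR proteins, which are small, rich in helices and secreted, and which bind both fatty acids and retinol. The LBP proteins of Caenorhabditis elegans belong instead to the fatty-acid-binding protein family shared by all animals, whose members fold into a beta barrel around the lipid; the products of lbp-1, lbp-2 and lbp-3 are predicted to be secreted. The genes described here are 7 carriers named together, far-1, far-2, far-3, far-6, lbp-1, lbp-2 and lbp-3, out of 14831 genes in the deposited count table. They were chosen by name, with the level of far-6 in young adult muscle known, so every comparison with young adult muscle below is given as values without a test. Of the 7 genes, 6 have an entry in the count table (lbp-1 has none), 5 had at least 1 read and 3 (far-1, far-2 and far-6) passed the filter on low counts.

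The libraries come from strains in which a spliced leader RNA carries a tag, so that messenger RNAs of the cells that make the tagged leader can be pulled down with a probe. The tag sits on the SL1 leader with the change G16C in 14 libraries and on the SL2 leader with the change T5A in 1; SL1 is joined mostly to transcripts that start at their own promoter and SL2 to downstream genes of operons. The U2-3 promoter drives the tagged SL1 leader in the multiple-tissue libraries (mixed stages, 2 libraries). The myo-3 promoter, active in body-wall and other non-pharyngeal muscle, drives it in the muscle libraries of L1 larvae (1 library), of L2 larvae (1, collected 12 h after feeding began), of dauers (2, from liquid culture, selected with detergent, over 90% live dauers, then left overnight in salt solution), of young adults (2, counted as adult day 1) and of day 12 adults (2, kept on plates with 400 µM fluorodeoxyuridine, which stops progeny). The rgef-1 promoter, active in all neurons, drives it in libraries of young adult neurons (2, adult day 1) and day 12 neurons (2, with fluorodeoxyuridine), and the myo-3 promoter drives the tagged SL2 leader in 1 mixed-stage muscle library whose description names SL1 while its title and strain name SL2. All strains were grown at 20 °C; how many transgenic lines stand behind a construct is not given in the sources used here. In such bulk libraries fewer cells of a type and less RNA per cell cannot be told apart.

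Library totals ran from 57104 reads (day 12 neurons, replicate 1) to 9587967 (dauer muscle, replicate 2), and genes with a read from 3913 to 8056 in the SL1-tag libraries and 992 in the SL2-tag library. The rank correlation between replicates over the tested genes was 0.974 for multiple tissues and 0.606 for day 12 muscle, the lowest; dauer replicate 2 held reads of 4569 genes against 7945 in the shallower replicate 1. Body-wall muscle markers (10 of 12 in the table) summed to 4358 to 46510 CPM (read counts scaled to library size) in the muscle libraries of each stage, against 73.4 to 76.3 CPM in multiple tissues and 54.2 to 260 CPM in neurons. Germline markers summed to 7662 to 8079 CPM in multiple tissues and to at most 635 CPM elsewhere. Neuron markers summed to 3322 to 5757 CPM in neurons, but also to 4060 to 4561 CPM in young adult muscle. Intestine markers (6 of 12 in the table) summed to 531 to 557 CPM in multiple tissues. In muscle and neuron libraries they stayed at or below 95.3 CPM. Hypodermis markers (10 of 12) summed to 41.0 to 42.7 CPM in multiple tissues. They stood at 80.1 CPM in L2 muscle, 32.4 to 102 CPM in day 12 neurons and at most 9.72 CPM elsewhere. The 2 coelomocyte and glia markers in the table had no read anywhere. The multiple-tissue libraries are thus low in muscle markers and high in germline markers, and what part this has in the muscle comparisons was not tested.

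far-1 (WBGene00001385) and far-2 (WBGene00001386) are neighbours on chromosome III that point away from each other. In the WBcel235 annotation far-1 runs on the minus strand at III:9080371-9081179 and far-2 on the plus strand at III:9081828-9082511, both protein-coding. Nearly all their reads began at the annotated start of the first exon, at base 9081179 for far-1 (262654 of 263469 reads at trans acceptors over all libraries) and at base 9081828 for far-2 (106489 of 106491). These 2 starts lie 649 bases apart. A further far-1 acceptor at base 9080968 had 811 reads and one at base 9080740 had 4, and a further far-2 acceptor at base 9082284 had 2. far-6 (WBGene00001390; IV:13328359-13329314, plus strand, protein-coding) was read at 1 acceptor, base 13328359, the start of its first exon, with 12301 reads. How reads that match more than 1 gene were assigned is not given in the sources used here, so levels of related genes carry that uncertainty.

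far-1, whose product binds fatty acids and retinol, made up 1.01 to 2.14% of all reads in each SL1-tag muscle library younger than day 12. Levels are in CPM scaled by edgeR's TMM factors. In larval muscle it stood at 23698 CPM in L1 (15203 reads, 2.14% of the library) and at 15409 CPM in L2 (24049 reads, 1.32%). In dauer muscle the 2 libraries had 15226 and 14264 CPM (31324 and 152424 reads, 1.59% of each library), and in young adult muscle 12925 and 14464 CPM (10054 and 24028 reads). L2, dauer and young adult libraries thus lie within a narrow band, with dauer and young adult values overlapping, and the single L1 library lies above them.

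In day 12 muscle far-1 stood at 2181 and 2818 CPM (1467 and 4508 reads), below every library of younger muscle. Neurons had 283 and 123 CPM in young adults (78 and 34 reads) and 205 and 178 CPM at day 12 (19 and 28 reads), and these 2 groups overlap. Multiple tissues had the lowest levels, 61.8 and 58.0 CPM (101 and 152 reads), and the SL2-tag library had no far-1 read among 2520944. The order from L1 down to L2, dauer and young adult muscle depends on the scaling: in the deposited RPM values, whose denominator is not stated, dauer replicate 1 was highest at 2074 and dauer replicate 2 stood at 1101, against 1789 in L1, 1059 in L2 and 1273 and 1397 in young adults. That day 12 muscle lies below all younger muscle and above all neurons held on both scales, at 269 and 258 RPM.

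far-2, the closest neighbour of far-1 and a carrier of the same family, followed another order. Larval muscle had 1464 CPM in L1 (939 reads) and 1414 CPM in L2 (2207 reads), and dauer muscle 3310 and 2510 CPM (6809 and 26822 reads). Young adult muscle had 23388 and 23893 CPM (18193 and 39690 reads), 1.83% and 1.73% of all reads in these libraries. Day 12 muscle fell between, at 3540 and 5320 CPM (2381 and 8512 reads). No young adult muscle value overlaps any other group, and the larval values lie below those of dauers, which lie below those of day 12 muscle; in RPM values dauers (451 and 194) and day 12 muscle (437 and 487) overlap.

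Outside muscle far-2 was scarce. Multiple tissues had 66.7 and 78.6 CPM (109 and 206 reads), young adult neurons 7.26 and 3.62 CPM (2 reads and 1 read) and day 12 neurons 97.3 and 31.8 CPM (9 and 5 reads). Multiple tissues and day 12 neurons overlap, and young adult neurons lie below both. The 2 reads of young adult neuron replicate 1 came from the internal acceptor at base 9082284 and not from the main start, so only 1 read of young adult neurons began there. far-2 had 606 reads in the SL2-tag muscle library, 240 CPM without TMM scaling.

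far-6, a member of the same family, was read in 7 of the 15 libraries, all of them muscle. Dauer muscle had 753 and 839 CPM (1549 and 8965 reads), day 12 muscle 400 and 726 CPM (269 and 1162 reads) and young adult muscle 78.4 and 170 CPM (61 and 282 reads). L2 muscle had 13 reads (8.33 CPM), and L1 muscle, multiple tissues, all 4 neuron libraries and the SL2-tag library had none. The 3 groups of later muscle do not overlap, although dauer replicate 1 and day 12 replicate 2 are close, and on the RPM scale dauers (103 and 64.7) and day 12 muscle (49.4 and 66.5) overlap. Where far-6 was at 0, a count of 3 would correspond to 1.14 to 32.4 CPM, the highest value in day 12 neuron replicate 1, so a low level in neurons was not detectable at this depth; these limits cover counting error only.

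**Figure D1:**
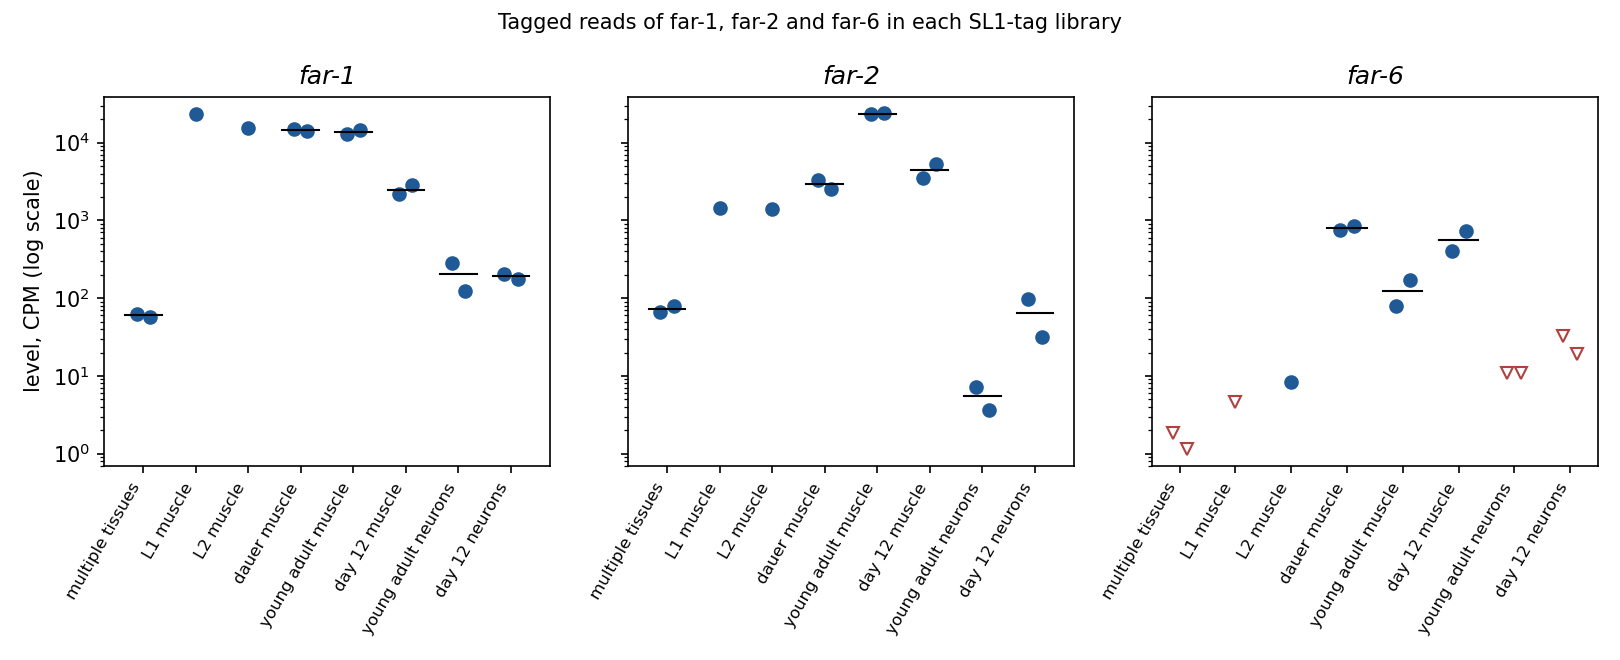
Each panel plots 1 gene, with groups of SL1-tag libraries on the horizontal axis and its level in CPM on a log scale on the vertical axis; each circle is 1 library, a bar is the mean of 2 libraries, and an open triangle marks a library without a read, drawn at the level of 3 counts. far-1 is high from L1 to young adult muscle, far-2 peaks in young adult muscle at 23388 and 23893 CPM, and far-6 has circles in muscle only, highest in dauers at 753 and 839 CPM.

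The first tested comparisons ask which of these carriers stand above multiple tissues in muscle. In day 12 muscle far-1 rose by 5.38 ± 0.42 on the log2 scale (SE; 2499 ± 450 CPM against 59.9 ± 2.68, SD, n = 2 each; edgeR adjusted p = 0.000184) and far-2 by 5.93 ± 0.52 (4430 ± 1259 against 72.6 ± 8.42 CPM; adjusted p = 0.000246). far-6 was at least 799-fold higher (563 ± 231 CPM against no read in either multiple-tissue library, with the limit of 3 counts taken over that group; edgeR adjusted p = 0.00199), or at least 307-fold with 1 of the 2 libraries left out. far-1 and far-2 thus rose in day 12 muscle, where 4.88% of the 8954 genes tested were called higher. far-6 has no read outside muscle and passed the filter only through the muscle libraries where it is high, so its calls here and below were not independent of the filter. The authors' deposited table gives ratios of 44.0 for far-1 and 63.9 for far-2 and lists far-6 with no level in multiple tissues; it marks all 3 as higher, as it does 2.12% of its 9569 genes.

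In dauer muscle far-1 rose by 7.94 ± 0.47 (14745 ± 680 CPM; edgeR adjusted p = 8.03e-05) and far-2 by 5.32 ± 0.51 (2910 ± 566 CPM; adjusted p = 0.000367), both against the same multiple-tissue libraries. far-6 was at least 1129-fold higher (796 ± 60.8 CPM; edgeR adjusted p = 0.0017), or at least 434-fold with 1 library left out. far-1 and far-2 rose where 5.14% of tested genes were called higher. In the authors' deposited table, which marks 5.89% of genes as higher in dauers, all 3 are marked, with ratios of 209 for far-1 and 33.8 for far-2.

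In larval muscle, taken as the mean of 1 L1 and 1 L2 library, far-1 rose by 8.32 ± 0.48 (edgeR adjusted p = 2.97e-05) and far-2 by 4.31 ± 0.48 (adjusted p = 0.000847). far-6, with 13 reads in L2 and none in L1, did not pass (edgeR adjusted p = 0.9999); without the L1 library it did, at an adjusted p of 0.0334. far-1 and far-2 thus rose where 3.53% of tested genes were called higher. With 1 library per stage, the spread behind this test comes from the other groups. The authors' deposited table gives ratios of 242 and 21.8, marks far-1 and far-2 but not far-6, and marks 2.89% of its genes. The 3 muscle comparisons share the 2 multiple-tissue libraries, so they are not independent of each other. Over all tested genes the median log2 difference from multiple tissues was -0.29 in day 12 muscle, 0 in dauers and -1.43 in larvae, and with DESeq2's size factors that of day 12 muscle moved to 0 and that of larvae to -1.36.

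Dauer and larval muscle were compared directly. far-1 did not pass (-0.37 ± 0.35 on the log2 scale; edgeR adjusted p = 0.588), nor did far-2 (1.02 ± 0.43; adjusted p = 0.226), although with DESeq2's Wald test far-2 passed at an adjusted p of 0.0122, the lowest of a range up to 0.488 over its alternatives. far-6 rose in dauers: its mean level was 95.6-fold that of L2 and at least 170-fold that of L1, and edgeR's adjusted p was 0.0121. The authors' deposited table gives far-6 a ratio of 12.1 here (the authors' adjusted p = 0.00948), with 0.953 for far-1 and 1.66 for far-2. The far-6 ratio lies far below both values from the counts, and why it does was not resolved. In this comparison 2.69% of tested genes were called higher. The far-6 call was lost without the L1 library (log2 6.56, adjusted p = 0.0569, the highest over its alternatives, which start at 7.09e-10). Germline markers, at 42.1 CPM in L1 and 9.61 CPM in L2, summed to 401 to 635 CPM in dauers, and body-wall muscle markers fell from 22076 or more to 5833 or less; their part in the result was not tested.

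**Figure D2:**
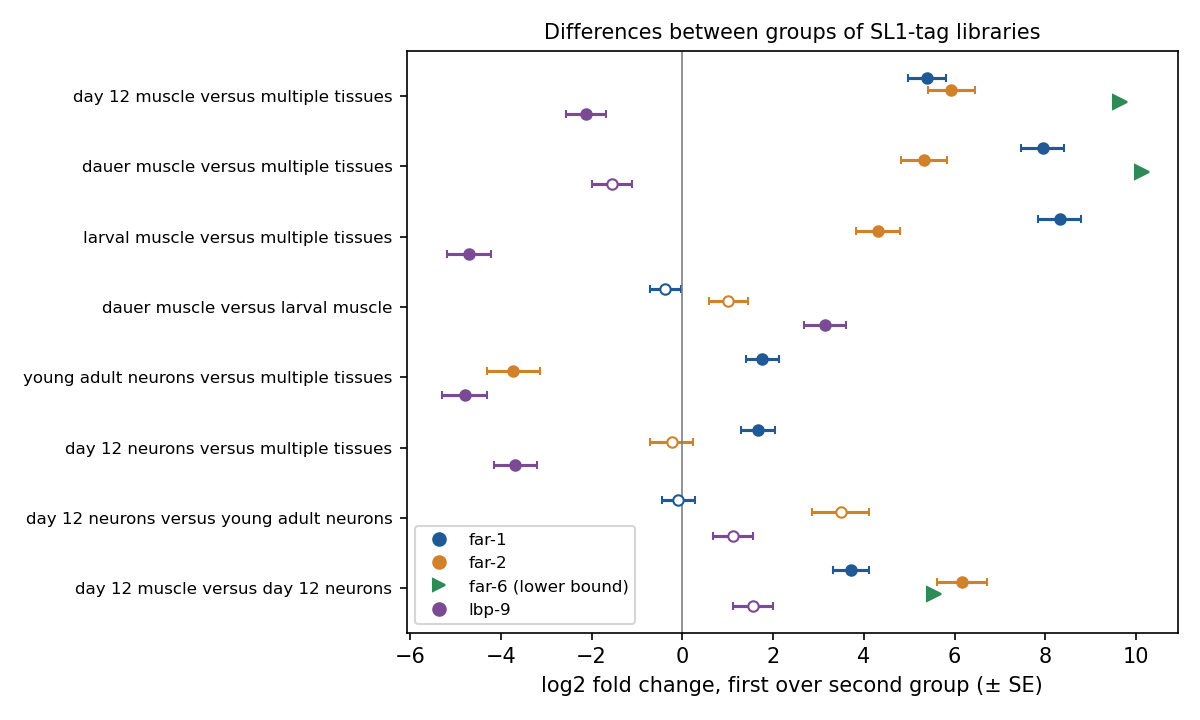
Points give the log2 fold change of far-1, far-2 and lbp-9 in each tested comparison, with SE bars; filled points passed edgeR's adjusted p threshold of 0.05 and open points did not. Green triangles are the lower bounds of far-6 where the second group had no read and far-6 passed that threshold. far-1 and far-2 lie right of 0 in all 3 muscle comparisons with multiple tissues, while lbp-9, a relative outside the named set, lies left of 0 in each, with an open point in dauers.

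The young adult comparisons hold the value by which the genes were chosen and are descriptions. Against multiple tissues, far-1 in young adult muscle was 228-fold (13695 ± 1089 CPM) and far-2 325-fold (23640 ± 357 CPM) as high, and far-6 at least 176-fold (124 ± 64.6 CPM), or at least 67.6-fold with 1 library left out. The count table has 3.93% of tested genes called higher in that comparison, and nothing is read from this. Against larval muscle the level of far-2 was 16.4-fold as high and that of far-1 lower by 0.48 on the log2 scale; against dauers far-2 was 8.12-fold as high, far-1 overlapped and far-6 fell by 2.68 on the log2 scale.

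From young adult to day 12 muscle far-1 was 5.48-fold and far-2 5.34-fold lower, while far-6 was 4.53-fold higher, with no overlap between the groups for any of the 3. The authors' deposited table gives ratios of 0.262 for far-1, 0.266 for far-2 and 6.45 for far-6 in this comparison. Body-wall muscle markers summed to 45039 to 46510 CPM in young adult and to 9127 to 21437 CPM in day 12 muscle. They were thus lower at day 12, where far-1 and far-2 were lower and far-6 was higher. Their part in these differences was not tested. Day 12 animals had also been kept on fluorodeoxyuridine, and age and drug cannot be told apart.

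In neurons far-1 and far-2 differed in direction. Against multiple tissues, far-1 rose in young adult neurons by 1.76 ± 0.36 on the log2 scale (203 ± 113 CPM, n = 2; edgeR adjusted p = 0.0099), while far-2 fell by 3.72 ± 0.59 (5.44 ± 2.57 CPM; edgeR adjusted p = 0.00243). Of all tested genes 7.8% were called higher and 9.21% lower in this comparison; far-6 had no read on either side. The fall of far-2 passed in each of its 10 alternatives. The far-1 call was lost with limma on RPM values, without either multiple-tissue library and without neuron replicate 1 (log2 1.02 to 1.72). The authors' deposited table gives ratios of 3.43 for far-1 and 0.0757 for far-2, with the authors' adjusted p at 0.0145 and 0.0091. It marks 8.87% of its genes as higher, and far-1 is not among them. That mark covers higher genes only, so it could not apply to far-2. The median tested gene differed by -2.05 in this comparison, or by -1.19 with DESeq2's size factors.

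In day 12 neurons far-1 rose by 1.67 ± 0.37 (192 ± 19.5 CPM; edgeR adjusted p = 0.0174), where 6.9% of tested genes were called higher, and far-2 did not pass (-0.24 ± 0.48; 64.5 ± 46.4 CPM; adjusted p = 0.775). The far-1 call was lost without any 1 of the 4 libraries (log2 1.31 to 1.66, adjusted p = 0.0883 to 0.126), and the authors' deposited table, which marks 7.64% of its genes, does not mark it. Body-wall muscle markers were at 178 to 260 CPM in day 12 neurons against 73.4 to 76.3 CPM in multiple tissues, with 7 of 10 markers read, and in young adult neurons at 54.2 to 79.8 CPM with 3 to 5 markers read; the part of RNA from muscle in the neuronal far-1 reads was not tested.

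Between the 2 ages of neurons far-1 did not pass (-0.09 ± 0.37; edgeR adjusted p = 1). far-2 was at 14 reads in day 12 against 3 in young adult neurons, in libraries that were shallower at day 12, and did not pass edgeR's adjustment (3.49 ± 0.63; edgeR adjusted p = 0.107). It passed with DESeq2's Wald test (adjusted p = 0.00777), without the filter on low counts (0.00412), with a replicate block (0.014) and with limma on RPM values (0.0133), over a range of adjusted p from 0.00412 to 0.384. Leaving out day 12 replicate 1 moved the log2 difference to 2.45 and leaving out replicate 2 to 4.11, and with limma it was 2.48. In this comparison 0.0223% of tested genes were called in either direction by edgeR.

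Muscle and neurons of the same age were compared at day 12. far-1 rose in muscle by 3.71 ± 0.39 on the log2 scale (edgeR adjusted p = 0.00122) and far-2 by 6.17 ± 0.55 (adjusted p = 0.00104), and both calls held in all 10 alternatives. Without neuron replicate 1 the far-2 difference was 7.26 and without replicate 2 it was 5.59. far-6 was at least 46.9-fold higher (edgeR adjusted p = 0.00933), or at least 17.4-fold with 1 neuron library left out. far-1 and far-2 rose where 3.03% of tested genes were called higher. The far-6 call was lost without day 12 neuron replicate 1 (adjusted p = 0.0528) or replicate 2 (0.0678, the highest of a range that starts at 6.35e-07).

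The balance between the 2 neighbours changed with stage. far-1 made up 94.2% of the reads of the pair in L1 muscle (exact 95% interval 93.8 to 94.5%) and 91.6% in L2 (91.3 to 91.9%). It made up 82.1% and 85.0% in dauers, but 35.6% and 37.7% in young adult muscle and 38.1% and 34.6% in day 12 muscle. In reads, far-1 went from 16.2 per far-2 read in L1 and 10.9 in L2 to 4.60 and 5.68 in dauers and to between 0.530 and 0.616 in all 4 adult muscle libraries. The larval, dauer and adult muscle libraries fall into 3 ranges that do not overlap, and young adult and day 12 muscle overlap; this is a description, since young adult muscle enters it.

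Multiple tissues had shares of 48.1% (41.2 to 55.1%) and 42.5% (37.3 to 47.8%). Young adult neurons had 97.5% (91.3 to 99.7%) and 97.1% (85.1 to 99.9%) on 80 and 35 reads, and day 12 neurons 67.9% (47.6 to 84.1%) and 84.8% (68.1 to 94.9%) on 28 and 33. In the SL2-tag library far-1 was at 0 of 606 reads of the pair, which allows a share of up to 0.607%. Such a ratio within 1 library does not depend on how libraries are scaled. It counts reads and not molecules, since the protocol has no molecular identifiers, and these intervals cover counting error only.

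**Figure D3:**
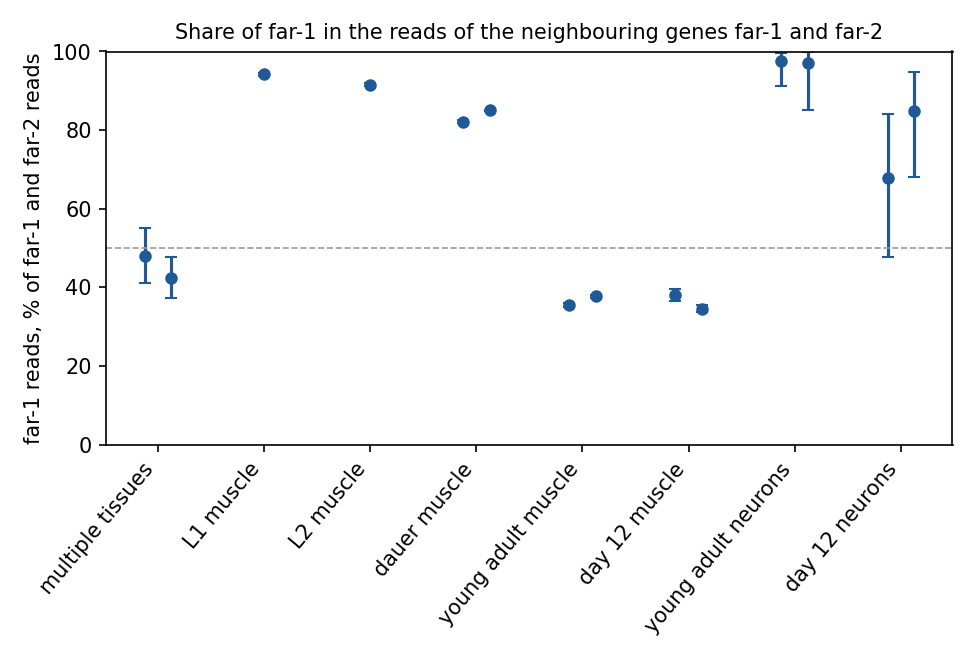
The vertical axis gives far-1 reads as a percentage of far-1 and far-2 reads together, by group on the horizontal axis; each point is 1 library, bars are exact 95% binomial intervals, and the dashed line marks equal reads. Larval muscle lies above 91%, dauers at 82.1% and 85.0%, and the 4 adult muscle libraries between 34.6% and 38.1%.

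The remaining members were close to or at 0. far-3 (V:12996787-12997522, minus strand) had no read in any of the 15 libraries, where 3 counts correspond to 0.281 to 32.4 CPM. lbp-3 (X:3257372-3258155, plus strand), whose product is known as a secreted fatty-acid carrier, had 10 and 11 reads at a trans acceptor in multiple tissues, 3 in young adult muscle replicate 1 and 1 in young adult neuron replicate 1, all at base 3257446, and none elsewhere. lbp-2 (X:3260610-3261470, plus strand) had 7 reads, all in dauer muscle replicate 1 at the start of its first exon. lbp-1 (X:3259142-3259812, plus strand) has no entry in the count table. These 3 lbp genes lie in a row on chromosome X. None of the 4 passed the filter, so none was tested.

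The deposited site table also holds reads at acceptors that the authors annotated as cis sites, which the gene counts leave out. far-1 had 7617 such reads at base 9080908, the start of exon 2, of which 706 were in dauer replicate 1 and 6630 in dauer replicate 2. With 4 more at exon 3 in replicate 1, that is 2.27 and 4.35 reads at cis acceptors per 100 at trans acceptors in dauers, against 0.171 in L1, 0.753 in L2, 0.129 and 0.187 in young adult muscle and 0.954 and 0.0665 in day 12 muscle. Day 12 neurons had 21.1 and 21.4 per 100, on only 4 and 6 reads at cis acceptors, and young adult neurons and multiple tissues had none. Libraries of the last 2 groups held only 34 to 152 far-1 reads at trans acceptors. Over all genes the figure was 15.0 and 17.7 in dauers, 45.0 and 70.4 in L1 and L2, 16.4 and 17.3 in young adult muscle, and 156 and 149 in day 12 neurons. far-2 and far-6 had no read at a cis acceptor. lbp-3 had 28 reads at a cis acceptor at the start of exon 4 (base 3258001), all in day 12 muscle replicate 2, where it had none at a trans acceptor; lbp-1 had 3 at the start of exon 3, in day 12 muscle replicate 1, and lbp-2 had 3 at the start of exon 2, in young adult muscle replicate 1.

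Among the relatives outside the named set, lbp-9 behaved unlike the far genes. It stood at 6282 ± 76.9 CPM in multiple tissues, 238 in L1 and 245 in L2 muscle, 2142 ± 167 in dauer, 804 ± 95.5 in young adult and 1435 ± 30.5 in day 12 muscle, and 226 ± 130 and 491 ± 147 in young adult and day 12 neurons. Multiple tissues lie above every other group, with no overlap. By edgeR lbp-9 fell against multiple tissues in 4 comparisons, with log2 changes of -2.13 ± 0.44 in day 12 muscle (adjusted p = 0.0167), -4.70 ± 0.50 in larval muscle (0.000653), -4.79 ± 0.50 in young adult neurons (0.000226) and -3.68 ± 0.48 in day 12 neurons (0.000903). Without young adult neuron replicate 2 the change there was -5.55, and without day 12 neuron replicate 1 it was -4.28. In dauers it stood at -1.55 ± 0.43 and did not pass (edgeR adjusted p = 0.0591), but passed under 4 of 10 alternatives (DESeq2's Wald test 0.0173, limma 0.0193, at least 50 counts 0.0392, no filter 0.0413), over a range from 0.0173 to 0.277. It rose from larvae to dauers by 3.15 ± 0.46 (edgeR adjusted p = 0.0108). The day 12 muscle call was lost with DESeq2's size factors (adjusted p = 0.0638) and without either multiple-tissue library (up to 0.0864, the range starting at 0.00208), the dauer against larval call without L2 (0.0612, the range starting at 3.65e-10).

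The other relatives were low or uneven. lbp-4 stood at 584 ± 25.7 CPM in multiple tissues and at 0 to 242 CPM elsewhere, and differed between the dauer libraries, with 235 reads in replicate 1 and none in the deeper replicate 2. lbp-5, whose product acts with the nuclear receptor NHR-49 in lipid breakdown, had 480 reads in all, lbp-6 had 600, lbp-7 had 683 and far-8 had 19. For these 5 genes edgeR's adjusted p was 0.156 or higher in each of the 8 comparisons. Under alternatives lbp-4 fell in dauers without the filter (edgeR adjusted p = 0.0186), with limma (0.0251) and without dauer replicate 1 (0.00287), and in young adult neurons without the filter (0.0041) and with limma (0.0147). Without dauer replicate 1 lbp-4 also fell from larvae to dauers (edgeR adjusted p = 0.00733). lbp-5 fell in dauers with limma (0.0423) and without dauer replicate 1 (edgeR adjusted p = 0.0495), and with limma in young adult neurons (0.00871), rising from there to day 12 (0.0131). far-7 had 3 reads and lbp-8, whose product carries lipid from the lysosome to the nucleus, had 1; far-5 had none, and far-4 has no entry in the table. Over the tested far genes (4 of 8) the median log2 difference was 5.65 in day 12 muscle, 6.63 in dauers and 3.88 in larvae against multiple tissues. Over the tested lbp genes (5 of 9) it was 0.37, -3.19 and -3.72, and over all tested genes in larvae -1.43. The larval medians rest on fitted values of genes without a read in L1: far-6 (13 reads in L2), lbp-5, lbp-6 and lbp-7. In L2 lbp-5 stood at 127 CPM and lbp-6 at 109 CPM, above their multiple-tissue means of 34.8 and 57.6 CPM. lbp-7 was slightly higher in L2 too, while lbp-4 and lbp-9 were lower in both larval libraries. The larval medians therefore do not show how the families differ. In dauers lbp-4, lbp-5 and lbp-6 had reads in replicate 1 only (235, 16 and 7) and lbp-7 in replicate 2 only (441). The dauer lbp median is the fitted value of lbp-5, so the dauer medians do not show it either.

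**Figure D4:**
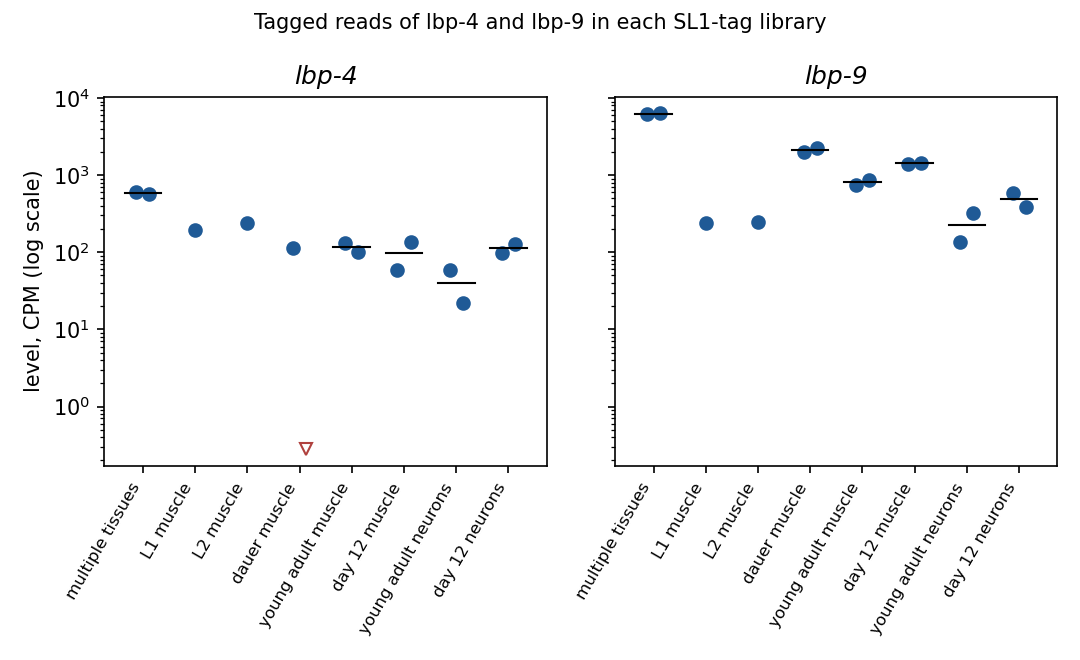
Levels of lbp-4 and lbp-9 in CPM on a log scale, by group of SL1-tag libraries; each circle is 1 library, a bar is the mean of 2 libraries and an open triangle marks a library without a read, drawn at the level of 3 counts. Both genes are highest in multiple tissues, at 584 and 6282 CPM on average, and lbp-4 has its triangle in dauer replicate 2.

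Other genes of lipid handling were described by 5 lists. Of yolk proteins and lipid carriers, 4 of 17 were tested, and nrf-5, a secreted lipid-binding protein needed for yolk uptake, rose in each muscle comparison with multiple tissues, by 8.58 ± 1.15 in day 12, 10.36 ± 1.21 in dauer and 9.24 ± 1.17 in larval muscle (edgeR adjusted p = 0.00427, 0.00223 and 0.00332), and also above day 12 neurons (adjusted p = 0.0249), where it had no read. Multiple tissues held 1 nrf-5 read, against 240, 4909 and 378 in these muscle groups, so the sizes are uncertain. That read could not carry nrf-5 through the filter on low counts, so its calls were not independent of the filter. Of all tested genes 4.88%, 5.14% and 3.53% were called higher in the day 12, dauer and larval muscle comparisons with multiple tissues. acbp-3, an acyl-CoA-binding protein, fell in dauers from 9.44 CPM to no read (edgeR adjusted p = 0.0369). In that comparison edgeR called 667 of the 8954 tested genes in either direction. Of 14 tested genes of fatty acid synthesis, elo-1, a fatty acid elongase, fell with log2 changes of -3.57 ± 0.85 in day 12 muscle, -8.35 ± 1.18 in young adult neurons and -7.29 ± 1.17 in day 12 neurons (edgeR adjusted p = 0.0284, 0.00135 and 0.00333). These were the only calls in that list by edgeR. Of all tested genes 4.94%, 9.21% and 5.22% were called lower in the same comparisons. Each neuron group held 1 elo-1 read, so the neuron sizes are uncertain. In dauer muscle edgeR called none of the list, 2 had an unadjusted p below 0.05, DESeq2 called 2 and limma 5. Over all tested genes in dauers the unadjusted count was 2108 of 8954, and DESeq2 called 1408 of 8954 and limma 2376 of 8455.

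Of 25 tested genes of fatty acid oxidation, 3 fell in day 12 muscle, where 4.94% of all tested genes were called lower. They were the acyl-CoA dehydrogenase acdh-12 (273 CPM to none; edgeR adjusted p = 0.00683), ech-4 (229 CPM to none; 0.00788) and the acyl-CoA synthetase acs-19 (407 to 5.86 CPM; 0.029). In dauers 1 rose, against 5.14% of all tested genes: the acyl-CoA synthetase acs-2, by 7.73 ± 1.82 (edgeR adjusted p = 0.0343). It had 1129 reads in dauers and 1 in multiple tissues, so the size is uncertain. acs-2 did not pass the filter through multiple tissues, so its call was not independent of the filter. In larvae edgeR called none of the 25, with 7 at an unadjusted p below 0.05, 5 called by DESeq2 and 8 by limma. Over all tested genes in larvae the unadjusted count was 2352 of 8954, and DESeq2 called 1487 of 8954 and limma 2448 of 8455. In young adult neurons 7 of the 25 fell, against 9.21% of all tested genes, among them the thiolase kat-1, acdh-7 and the isovaleryl-CoA dehydrogenase ivd-1, each with no read there against 309, 102 and 311 CPM in multiple tissues (edgeR adjusted p = 0.0021, 0.00656 and 0.0073). In day 12 neurons 6 fell and 1 rose, against 5.22% and 6.9% of all genes. The median over the list was -3.36 in day 12 muscle, -1.39 in dauers, -1.82 in larvae, -5.22 in young adult neurons and -2.65 in day 12 neurons on the log2 scale. The medians over all tested genes in the same comparisons were -0.29, 0, -1.43, -2.05 and -0.62.

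Of 6 tested genes of lipases and lipid droplets, plin-1, the worm perilipin that coats lipid droplets, fell in young adult neurons with a log2 change of -8.09 ± 1.07 (edgeR adjusted p = 0.00135) and in day 12 neurons from 513 CPM to none (adjusted p = 0.00215), and stood in day 12 muscle at 106 CPM against none in day 12 neurons (0.0187). Young adult neurons held 1 plin-1 read, so the size there is uncertain. Of all tested genes 9.21% were called lower in young adult neurons and 5.22% in day 12 neurons. In day 12 muscle against day 12 neurons 3.03% were called higher. mboa-2 fell in dauers from 67.5 CPM to none (edgeR adjusted p = 0.0489), where 667 of 8954 tested genes were called in either direction. Of 14 tested regulators of lipid metabolism, mxl-3, a transcription factor that represses lipases in fed worms, rose in day 12 muscle by 7.86 ± 1.63, in dauers by 6.70 ± 1.56 and in day 12 neurons by 5.91 ± 1.53 (edgeR adjusted p = 0.0166, 0.0278 and 0.0328). hlh-30, the TFEB homologue that acts on lysosomes and fat, rose in dauers by 4.86 ± 1.25 and in day 12 neurons by 4.84 ± 1.27 (edgeR adjusted p = 0.0433 and 0.034). In multiple tissues mxl-3 had 4 reads and hlh-30 had 11, and in day 12 neurons 15 and 18, so these sizes are uncertain. Of all tested genes 4.88% were called higher in day 12 muscle, 5.14% in dauers and 6.9% in day 12 neurons. In day 12 muscle against day 12 neurons acdh-7 rose (129 CPM against none; edgeR adjusted p = 0.0251) and ech-7 fell (none against 149 CPM; 0.0474). Between dauer and larval muscle edgeR called no gene of these 5 lists, and DESeq2 called 1 carrier, 2 oxidation genes, 1 lipase or droplet gene and 3 regulators. Over all 8954 tested genes edgeR called 295 there and DESeq2 1168. The named genes of these lists are the called ones with the smallest p in each comparison, up to 3. Those without a read in a compared group passed the filter only through other groups, so their calls were not independent of it. mxl-3 and hlh-30 were likewise too low in multiple tissues to pass through that group.

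Over the 14 SL1-tag libraries, which differ widely in depth, the log2 levels closest to far-1 by Pearson correlation among 4613 genes with a symbol were those of ndnf-1 (r = 0.967), twk-8, a potassium channel (0.967), and nrf-5 (0.954). Closest to far-2 were unc-60, which encodes actin-depolymerising cofilins (0.955), upb-1 (0.95) and the galectin lec-5 (0.943). For far-6 they were the non-coding RNA linc-22 (0.955), the cullin cul-6 (0.911) and the Smad sma-3 (0.909). far-1 and far-2 correlated with each other at 0.84, far-1 and far-6 at 0.673, and far-2 and far-6 at 0.794. All of these are descriptions over libraries of which 8 are muscle.

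The authors' deposited table of earlier muscle gene sets lists 8509 genes with membership in 5 sets. far-2 and far-6 belong to 4 of them, those from reporters or antibodies (1144 genes), embryonic muscle cells (6837), RNA bound by tagged poly(A)-binding protein in L1 muscle (1380) and young adult muscle nuclei (900). far-1 belongs to 2, embryonic muscle cells and the L1 set. lbp-2 and lbp-3 belong to the embryonic, L1 and nuclear sets, lbp-1 to the reporter set and far-3 to the embryonic set, the largest. None of the 7 belongs to the set of genes bound by HLH-1, a muscle transcription factor (623 genes).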

How the data were processed

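Tagged RNA was reverse transcribed, amplified in 2 rounds of PCR without molecular identifiers, cut with Tn5 and sequenced, per the labels' protocols. Tools named, per the submitters' processing notes, are Trimmomatic, TopHat2 and DESeq, without versions; what each did, and the genome build, is not given. The authors deposited whole-read counts per gene at trans-splice acceptors, RPM values with an unstated denominator, counts per acceptor site, and tables of their comparisons with fold changes as a ratio and adjusted p-values. The authors also deposited columns of other kinds, such as their calls and earlier gene sets. Each of the gene, RPM and site tables has 3 further columns that fit none of the 15 libraries and were left out.

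Of the deposited cis acceptors, 90.6% of 32276 lie at exon starts of WBcel235, the build used for positions. The 14 SL1-tag libraries were fitted together as 8 groups with edgeR 4.0.16 (R 4.3.3; filterByExpr, TMM, quasi-likelihood F test; residual df 6, prior df 4.17, common BCV, the coefficient of variation between replicates, 1.09). This left 8954 genes; p-values were adjusted over all of them by Benjamini and Hochberg's method, with a threshold of 0.05. Where 1 group had no read, the log2 fold change is replaced by a bound from 3 counts over that group. SE is the absolute log2 fold change over the square root of F. DESeq2 1.42.0, limma 3.58.1 on log2(RPM + 1) and other filters were alternatives, and the fitting code was tested on simulated data. Per the series' design text most groups have 2 biological replicates, so p-values measure the spread between these.

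Same-numbered libraries of different groups did not deviate together (15 pairs, correlations -0.0368 to 0.017), so no block was used. The named genes are the 7 members, the other numbered far and lbp genes with a read, up to 3 called genes per lipid list and comparison by smallest p, and the 3 genes most correlated with each tested member. Members and lists were chosen with earlier results of these data known.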

Additional observations from a re-analysis of the deposited data

Results flagged for a closer look

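Among the compared groups, 5 differences between effects against the same multiple-tissue libraries passed edgeR's test of the difference itself. Between dauer and larval muscle these were far-6 (fitted log2 difference 10.01, which depends on the prior count because L1 has no read) and lbp-9 (3.15). Between day 12 muscle and day 12 neurons they were far-1 (3.71), far-2 (6.17) and far-6 (fitted 12.96, with no read in neurons). Of all tested genes 2.69% were called higher in the first of these comparisons and 3.03% in the second. far-6 passed the filter only through the muscle libraries where it is high, so its differences are not independent of the filter. The far-6 and lbp-9 calls did not hold in all alternatives. No group holds 4 or more libraries, so no single library could be tested against its group.

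Signal outside the compared counts appeared in 3 places. far-2 had 606 reads in the SL2-tag muscle library, where far-1 and far-6 had none and 3 counts correspond to 1.19 CPM. far-1 had 6630 reads at cis acceptors in dauer replicate 2, which is 4.35 per 100 at trans acceptors against 17.7 over all genes. lbp-3 had 28 reads at a cis acceptor in day 12 muscle replicate 2. In multiple tissues neither far-1 nor lbp-3 had a read at a cis acceptor. At trans acceptors far-1 had only 101 and 152 reads there and lbp-3 10 and 11, so low rates were not detectable.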

How the results depend on the processing

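The limits are the 2 libraries per group (1 for L1, L2 and the SL2 tag), the shallow neuron libraries of 57104 to 282171 reads, and a multiple-tissue reference on which 5 of the 8 comparisons rest. For far-1, far-2 and far-6 there were 24 tested differences and 240 values under alternatives: 223 stayed on their side of the threshold, 11 lost it, 6 passed where the reported value had not, and none of the called values changed sign. Those that stayed were 72 of far-1, 75 of far-2 and 76 of far-6. Neurons against multiple tissues and the ages of neurons gave far-6 no read on either side, so its 10 alternatives in each could only stay. The other far-6 calls were not independent of the filter. Differences that had not passed could change sign without passing, such as far-1 between dauer and larval muscle (-0.37 as reported, up to 0.13) and between the ages of neurons (-0.09, up to 0.63), and far-2 in day 12 neurons against multiple tissues (-0.24, up to 1.14). far-1 and far-2 stayed above multiple tissues in all 60 alternatives of the 3 muscle comparisons (log2 3.49 to 8.55). The number of members with at least 1 read was 5 on both scales, and of their 8 trans acceptors 5 had 10 reads or more.

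The counts of genes called over the whole table moved more, and the cause was not tested. The reported counts were 879 for day 12 muscle, 667 for dauer muscle and 628 for larval muscle against multiple tissues, 295 for dauer against larval muscle, 1523 for neurons of young adults and 1085 for neurons at day 12 against multiple tissues, 2 between the ages of neurons (891 at an unadjusted p below 0.05) and 487 for day 12 muscle against neurons. In the same order, DESeq2's Wald test called 1722, 1408, 1487, 1168, 2060, 1736, 315 and 1014. Without a filter on low counts edgeR called 1604, 1255, 1372, 666, 2301, 1838, 149 and 864, and limma on log2(RPM + 1) called 2756, 2376, 2448, 1007, 3770, 4226, 1087 and 2169. With at least 50 counts in 2 libraries the dauer, larval and dauer against larval counts became 1033, 994 and 582, and that between the ages of neurons 18; with DESeq2's size factors the last was 10. Leaving out 1 library gave, in the same order, 239 to 899, 229 to 1230, 258 to 388, 48 to 524, 745 to 918, 487 to 559, 0 to 1 and 147 to 565. With DESeq2's size factors in place of TMM, the share of calls that were higher moved from 49.7% to 70.5% in day 12 muscle, from 45.8% to 66.6% in young adult neurons, from 57.0% to 82.7% in day 12 neurons, from 50% to 90% between the ages of neurons and from 55.6% to 33.0% for day 12 muscle against neurons. A replicate block, although same-numbered libraries share only a number, gave 828, 751, 697, 261, 1500, 1170, 33 and 493 calls, and with it the far-2 difference between the ages of neurons passed.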
